A study of Mus musculus with 9 samples.

Results

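Isolated peaks are the deposited regions of open chromatin on chromosomes 1 to 19 that are narrower than 3000 bp and have no other deposited peak within 100000 bp on either side. The rule uses positions only and no measured level. It selected 2594 of the 25915 deposited peaks, of which 25623 lie on those chromosomes. ATAC-seq, in which a transposase cuts and tags open DNA, had been run on nuclei of CD1 mouse cardiomyocytes on day 1 (P1), day 14 (P14) or day 56 (P56) after birth, with 3 libraries per stage. The series' text calls the replicates biological, and no genotype or treatment separates the stages. Each library came from pooled hearts (12 per sample at P1, 6 to 7 at P14 and P56) whose nuclei were sorted on Pcm1, a centriolar satellite protein that gathers at the nuclear envelope of cardiomyocytes. The growth protocol mentions surgery, and it is not stated if the hearts used here were operated on. The comparisons ask how accessibility at lone regions differed between the newborn, the juvenile and the adult heart.

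Open regions of a nucleus usually lie in groups, where a promoter and several enhancers share a neighbourhood around an active gene. A region that stands alone can be the promoter of a single gene in gene-poor DNA, a distant enhancer, or a site bound by an architectural protein such as CTCF. Long stretches with few genes, often called gene deserts, surround many developmental and neuronal genes, and in a muscle nucleus much of this DNA is held in closed chromatin.

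Being alone is relative to the deposited rows. Peak numbers run along the genome up to 72862, and the 25915 deposited rows hold 35.6% of these numbers. The numbers in between were not analysed here. Only 87 isolated peaks (3.35%) had no number missing between them and either neighbour, and the median isolated peak had 9 missing over both sides. No deposited row averaged fewer than 10 reads per library, so "isolated" means more than 100000 bp from the next deposited peak of this strength.

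Peak counts per library ran from 604684 to 1217798 at P1 and P56 and from 316311 to 559445 at P14 (exact permutation test over all assignments of libraries to stages, two-sided, p = 0.025), so P14 was the shallowest stage. The libraries labelled P1 replicate 1 and P56 replicate 2 stood apart from the rest. The strongest 10% of peaks took 25.6% of the peak counts in P1 replicate 1 and 32.1% in P56 replicate 2, against 26.5% to 28.4% in the other libraries. Rank correlations of levels over isolated peaks were 0.506 to 0.751 between libraries of a stage and 0.309 to 0.671 between stages, with the lowest between those 2 libraries. Promoter-region counts of 10 cardiomyocyte markers summed to 492 to 1083 CPM (counts scaled by TMM to a common library total) in the P1 libraries, 784 to 951 in those of P14 and 939.9 to 2373 in those of P56, and 5 of the 10 (Myl2, Tnnt2, Tnni3, Myh6 and Ttn) passed the test as higher at P56. Summed levels of 7 fibroblast markers were 279.6 to 321 CPM at P1 and 266 to 288 at P56, those of 6 endothelial markers 155 to 199 and 155 to 169, those of 6 leukocyte markers 149 to 190.3 and 174 to 201, those of 6 smooth muscle and pericyte markers 128 to 147 and 167 to 178, and those of 3 erythroid markers 36.2 to 51.4 and 30.3 to 32.4. None of these markers was at 0 and none outside the cardiomyocyte list passed the test. Over all promoter regions, 1.72% passed as higher at P56, and no fit of these regions left out a library. The part of the markers in the results below was not tested.

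The isolated peaks were narrow and weak. Their median width was 1180 bp (592 to 2997) and their median mean count 17.4 (10 to 137), against 1421 bp and 23.7 for all autosomal peaks. Of the 2594, 1416 (54.6%) were intergenic, which here means more than 1000 bp from either end of any protein-coding gene and outside all of them. A further 585 (22.6%) lay inside a protein-coding gene, 171 (6.59%) within 1000 bp of a gene's end, and 422 (16.3%) overlapped a RefSeq promoter window, the 250 bp before to 50 bp after an annotated transcription start. Gene positions carried no strand, so an end can be the start of the gene. PK1811, counted at an end of Erbb4, lay 285 bp from the Erbb4 start. The windows may also not cover every gene: the nearest start to PK41838, at an end of Ripk2, was 1349373 bp away. The promoter class may therefore miss some promoters. Among all autosomal peaks the intergenic share was 34.5% and the promoter share 27.7%. For comparison, 2127 narrow peaks that had their nearest neighbour within 5000 bp, called clustered peaks here, were 32.0% intergenic and 25.4% at promoters. Isolated peaks made up 14.6% of the peaks of chromosome 3 and 14.5% of those of chromosome 1, against 5.91% on chromosome 7 and 5.96% on chromosome 11.

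Sequence was at hand for promoters, and 5 of those under isolated peaks are shown because they span what this class holds: the 2 promoters with the largest gaps (Ppp1r3a and Rnpc3), a heart potassium channel (Kcnj2), a neuronal adhesion gene in a gene desert (Cadm2) and a strong housekeeping-type promoter (Scaf11). Each line holds the 250 bases before the start, 5′ to 3′ on the gene's own strand, from RefSeq on GRCm38.p6. Capitals mark every match to 10 motifs searched on both strands. These were the core of the CTCF site as CAGGGGGC, the MEF2 site as CTATTTATA, the site of GATA factors as AGATAA, that of TEAD factors as CATTCC, and the AP-1 site as TGANTCA. The others were the E-box as CAGCTG, the site of MEIS factors as TGACAG, the NRF1 site as GCGCATGCG, the core promoter box named TATA as TATAAA, and the box named CCAAT by its letters.
Ppp1r3a: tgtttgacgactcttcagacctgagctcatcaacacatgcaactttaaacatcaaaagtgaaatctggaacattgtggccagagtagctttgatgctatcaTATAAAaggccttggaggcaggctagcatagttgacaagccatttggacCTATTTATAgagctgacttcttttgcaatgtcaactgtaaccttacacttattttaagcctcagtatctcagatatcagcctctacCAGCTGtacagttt
Rnpc3: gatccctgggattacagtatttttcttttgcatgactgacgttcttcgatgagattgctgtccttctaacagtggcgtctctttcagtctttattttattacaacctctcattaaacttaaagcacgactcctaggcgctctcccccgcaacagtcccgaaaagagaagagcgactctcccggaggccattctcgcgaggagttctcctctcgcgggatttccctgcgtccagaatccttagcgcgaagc
Kcnj2: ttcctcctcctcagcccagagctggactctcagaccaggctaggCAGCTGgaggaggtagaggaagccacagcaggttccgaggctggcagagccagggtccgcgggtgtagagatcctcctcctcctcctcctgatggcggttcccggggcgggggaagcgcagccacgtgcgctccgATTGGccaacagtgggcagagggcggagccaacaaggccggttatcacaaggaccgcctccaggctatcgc
Cadm2: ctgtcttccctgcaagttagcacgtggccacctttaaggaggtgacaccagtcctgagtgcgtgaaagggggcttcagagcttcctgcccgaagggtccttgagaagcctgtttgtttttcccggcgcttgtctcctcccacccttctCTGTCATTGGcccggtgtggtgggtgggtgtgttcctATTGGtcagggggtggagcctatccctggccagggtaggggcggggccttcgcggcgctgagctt
Scaf11: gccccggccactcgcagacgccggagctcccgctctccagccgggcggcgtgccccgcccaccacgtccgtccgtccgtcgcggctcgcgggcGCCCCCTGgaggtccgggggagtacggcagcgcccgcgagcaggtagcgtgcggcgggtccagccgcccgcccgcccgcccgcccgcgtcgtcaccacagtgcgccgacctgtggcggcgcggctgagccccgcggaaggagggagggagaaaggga

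The Ppp1r3a window (chr6:14755275-14755524, minus strand) belongs to the gene for the glycogen-targeting subunit of protein phosphatase 1 in striated muscle. It held a MEF2 match 100 bp before the start, 2 TATA box matches 149 and 97 bp before it, and an E-box match 14 bp before it. The TATA box match at 97 bp lies within the letters of the MEF2 match, read on the other strand. Over the whole window its GC content was 41.0%, the lowest of the 5, and it was the only one of them with a TATA box or MEF2 match. The Rnpc3 window (chr3:113630150-113630399, minus strand), of a gene for a protein of the minor spliceosome, held no match. In the Kcnj2 window (chr11:111065914-111066163, plus strand), of the inward rectifier channel Kir2.1 that sets the resting potential of heart muscle, an E-box and a CCAAT box match were found. A MEIS match in the Cadm2 window (chr16:67620909-67621158, minus strand) shares a base with the first of its 2 CCAAT box matches. The Scaf11 window (chr15:96460844-96461093, minus strand) had a GC content of 80.0% and a CTCF core match 157 bp before the start. A match is a description of letters and not a bound site.

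In base composition the 567 promoter windows under isolated peaks resembled those under other peaks. Their median GC content was 63.3%, against 63.0% for the 9687 windows under any deposited autosomal peak and 49.3% for the 21678 under none. A ratio of observed to expected CpG above 0.6 was found in 72.5% of them, 75.7% of windows under any peak and 36.3% of all 31365 autosomal windows. Motif shares, given for windows under isolated peaks and then for all windows, were 4.59% and 2.91% for the CTCF core, 0.705% and 0.434% for MEF2 (4 windows under isolated peaks), 5.82% and 11.2% for GATA, 8.82% and 14.6% for TEAD, and 5.47% and 7.85% for AP-1. They were 15.3% and 16.3% for the E-box, 17.1% and 19% for MEIS, 1.76% and 1.73% for NRF1, 4.41% and 13.6% for the TATA box and 35.4% and 37.3% for the CCAAT box. Windows under any deposited peak had 4.69% for the CTCF core and 5.78% for the TATA box, close to the isolated ones, but 11.1% for TEAD and 3.80% for NRF1, above them.

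Isolated peaks took a smaller part of the adult libraries. They held 7.86%, 7.31% and 7.16% of all peak counts in P1 replicates 1 to 3, 7.50%, 7.06% and 7.20% at P14 and 6.70%, 5.07% and 6.34% at P56. All 3 P56 libraries lay below all P1 and P14 libraries. Stage means were 7.44% ± 0.370, 7.26% ± 0.227 and 6.03% ± 0.858 (SD, n = 3 each) in order of age; these shares were described and not tested. In bulk nuclei, fewer nuclei with a region open and less opening per nucleus cannot be told apart.

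The lower adult level was seen at the intergenic members, while the stages overlapped at the promoters and inside genes; the difference between the classes was not tested. The median level of intergenic isolated peaks was 26.3, 22.2 and 21.3 CPM in the P1 libraries, 24.6, 21.8 and 22.1 at P14 and 19.7, 11.3 and 18.4 at P56. No P56 library overlapped an earlier one, and P56 replicate 2 was by far the lowest. Isolated peaks at promoters had medians of 28.0, 36.6 and 38.5 CPM at P1, 33.3, 34.2 and 34.7 at P14 and 32.8, 32.0 and 33.4 at P56, with P1 replicate 1 the lowest of the 9. Members inside genes had stage means of 23.0 ± 3.01, 22.8 ± 1.51 and 18.4 ± 3.72 CPM (SD, n = 3 each), and the median of 20.5 CPM in P1 replicate 3 lay below the 21.0 of P56 replicate 1.

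**Figure D1:**
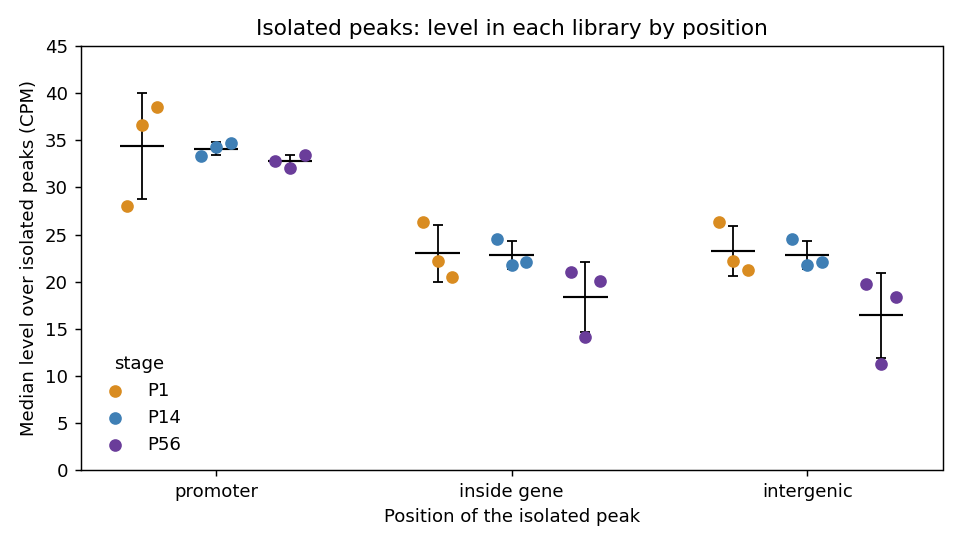
Median level (CPM) over the isolated peaks of each position class, 1 point per library (3 per stage), with the mean (line) and SD (bar) of each stage. The intergenic medians lie between 11.3 and 19.7 CPM at P56 and between 21.3 and 26.3 CPM at P1, while the promoter medians of the stages overlap.

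On the log2 scale of the fit the median change of isolated peaks from P1 to P56 was -0.35, against 0.03 over all 25885 peaks fitted, 0.12 for clustered peaks and 0.07 for broad ones (3000 bp or wider). Of the 2586 isolated peaks fitted, 25.3% had a change above 0, against 52.4% of all peaks. The median was -0.52 for intergenic members, -0.30 inside genes, -0.05 at gene ends and -0.04 at promoters. Over all autosomal peaks it was -0.27 for intergenic ones and 0.19 for promoters, and isolated members had lower medians than their position class at gene ends and inside genes too (0.13 and 0.06 over all autosomal peaks). Weak peaks were lower too: the median was -0.50 for isolated peaks with a mean count below 20 and -0.22 for all autosomal peaks below 20. Among intergenic peaks below 20 counts alone, it was -0.60 for the isolated, -0.39 for all and -0.18 for the clustered. These medians describe the peaks and carry no test. The floor on the raw mean count of deposited peaks favours weak peaks that are high in the deeper libraries, and its part in these medians was not tested. Without P56 replicate 2 the isolated median was -0.19 (all peaks 0.01), and without both libraries that stood apart it was -0.15 (all peaks -0.0014), with -0.17 at intergenic members and -0.21 at promoters, so the order of these classes turned. Scaling by the factors of the promoter-region table moved the median of all peaks to 0.31 and that of the isolated ones to -0.07. The difference between them stayed at -0.38, as in the fit reported.

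The change was graded by the distance to the nearest peak, on both sides of the limit of the rule. Among all narrow autosomal peaks the median log2 change from P1 to P56 was 0.12 for gaps up to 5 kb, 0.13 from 5 to 20 kb, 0.05 from 20 to 50 kb and -0.07 from 50 to 100 kb. Among isolated peaks it was -0.23 from 100 to 150 kb (1245 peaks), -0.36 from 150 to 200 kb (515), -0.48 from 200 to 300 kb (498) and -0.54 beyond 300 kb (336). Intergenic peaks alone went from -0.05 in the nearest class to -0.62 in the farthest, and promoter peaks from 0.20 to -0.13. The promoter share was 25.4% in the nearest class and 8.63% in the farthest, and the median level 33.3 and 20.7 CPM; their part in the trend was not tested. Without P56 replicate 2 the isolated classes had -0.13, -0.22, -0.24 and -0.30, intergenic peaks went from -0.07 to -0.35 and promoter peaks from 0.03 to -0.09. Without both libraries that stood apart, neither series fell at every step. Intergenic peaks had -0.02 in the nearest class, 0.08 from 5 to 20 kb and -0.24 in the farthest. Promoter peaks had -0.12 in the nearest class, -0.26 from 150 to 200 kb and -0.17 in the farthest.

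**Figure D2:**
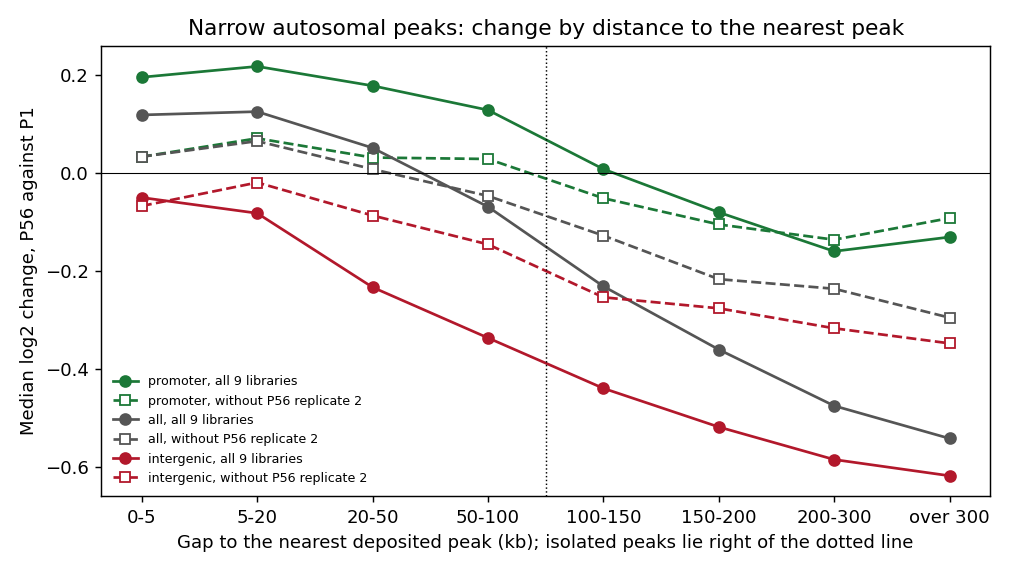
Median log2 change from P1 to P56 (y axis) of narrow autosomal peaks by gap to the nearest deposited peak (x axis, kb), for all peaks, promoter peaks and intergenic peaks, with all 9 libraries (filled) and without P56 replicate 2 (open). With all libraries the medians run from 0.12 in the nearest class to -0.54 in the farthest over all peaks, and the open symbols span a smaller range.

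Single peaks passed the test in few cases, and mostly as lower in the adult. Between P56 and P1, 13 isolated peaks fell and 3 rose at an adjusted p below 0.05 (edgeR quasi-likelihood test, Benjamini-Hochberg over all peaks fitted). The 16 are 0.619% of the isolated peaks, against 0.444% of all peaks. The 13 lower ones are 0.503% against 0.232%, and the 3 higher ones 0.116% against 0.212%. All P56 libraries lay below all P1 libraries at 532 isolated peaks (20.6%, against 10.1% of all peaks) and above them at 55 (2.13%, against 8.54%). An unadjusted p below 0.05 was reached by 579 (22.4%, against 16.0%). Every one of the 16 calls was lost when P56 replicate 2 was left out, which left 0 calls over all peaks and 265 isolated peaks at an unadjusted p below 0.05. Leaving out P56 replicate 1 instead gave 111 calls, 105 of them lower, among 649 over all peaks. Without P1 replicate 2 there were 3 among 7, without P14 replicate 3 there were 8 among 63, and without P56 replicate 3 there were 2 among 18. The counts over all peaks thus moved with those of the isolated ones.

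**Figure D3:**
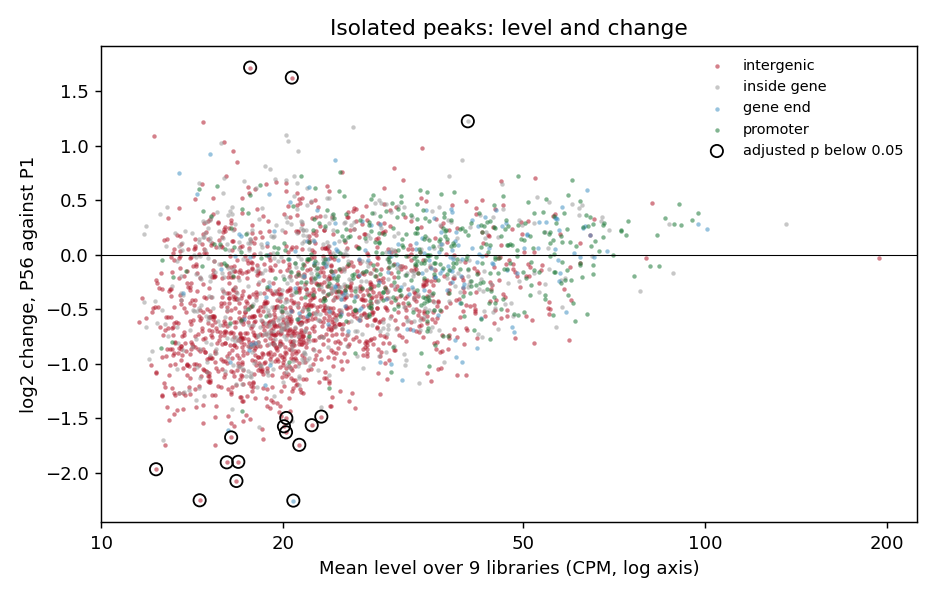
Mean level over 9 libraries (CPM, log axis) and log2 change from P1 to P56 of the 2586 isolated peaks fitted, coloured by position, with the 16 that passed the test circled. The circled lower peaks lie at the weak end of the level axis and the intergenic peaks lie mostly below 0.

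The 13 isolated peaks that fell had P1 means of 18.4 to 44.0 CPM and P56 means of 4.81 to 12.2 CPM, with log2 changes from -2.26 to -1.49 (adjusted p 0.00294 to 0.0465, edgeR). All had mean counts below 20, between 10.1 and 19.8, 12 were intergenic, and at all 13 the libraries of the 2 stages did not overlap. None sat at a promoter window. Raw mean counts give more weight to deeper libraries, and peak counts were 889605 to 1217798 at P1 against 604684 to 1143607 at P56. A weak peak that is high at P1 could thus reach the lowest deposited mean of 10 more easily than one high at P56. The part of this floor in the falls was not tested.

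The strongest call was at an odorant receptor gene. PK56790 (chr7:103460169-103461341) lay at an end of Olfr607, a member of the olfactory receptor family, whose genes stand in large arrays of similar copies that are silent outside sensory neurons. Its level was 23.9, 49.9 and 58.1 CPM at P1, 7.01, 12.5 and 9.47 at P14 and 14.4, 8.48 and 3.34 at P56. The P1 libraries were all above the later ones, and P14 and P56 overlapped. The fall from P1 to P56 was 4.78-fold (log2 -2.26 ± 0.40 SE, edgeR adjusted p = 0.00294), and the change from P1 to P14 was -2.23 ± 0.47 without passing the test (adjusted p = 0.0795). A second call lay 2365 bp from Olfr512: PK56956 (chr7:108716700-108717998), with 41.1, 25.5 and 30.3 CPM at P1 and 7.88, 13.2 and 13.4 at P56. Its call was kept in 1 of 9 fits that left out 1 library. How reads from similar gene copies were assigned is not given in the sources used here, so both are uncertain in position. Over the 9 fits that each left out 1 library, the change at PK56790 ran from -2.72 to -1.96 and the call was lost without P56 replicate 2.

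Calls that fell elsewhere were intergenic. PK1511 (chr1:57228596-57229526) lay 148070 bp from the nearest protein-coding gene, 1700066M21Rik, and 13600 bp from the annotated start of BC055402. It had 26.3, 18.9 and 22.1 CPM at P1, 17.5, 18.7 and 12.6 at P14 and 5.26, 2.83 and 6.68 at P56. The stages did not overlap in either step. Its fall from P1 to P56 was 4.77-fold (log2 -2.26 ± 0.47 SE, edgeR adjusted p = 0.0109), and, like PK56790, it kept its call in 8 of 9 fits that left out 1 library (-2.50 to -1.91). The other 14 called peaks kept theirs in 1 to 6 of the 9 fits. PK3248 (chr1:123037907-123038859), 293279 bp from Dpp10, an auxiliary subunit of neuronal potassium channels, had 25.5, 17.8 and 22.1 CPM at P1, 24.6, 21.8 and 22.1 at P14 and 9.19, 0.942 and 6.68 at P56. Here P1 and P14 overlapped and only P56 was low (P56 against P1, log2 -2.08 ± 0.47, adjusted p = 0.0239, and -2.77 to -1.43 with 1 library left out).

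PK60393 (chr8:97640374-97641400) lay 1383071 bp from Cdh8, a neuronal cadherin that is nonetheless its nearest protein-coding gene. Its levels were 23.9, 14.4 and 37.7 CPM at P1, 19.3, 12.5 and 15.8 at P14 and 10.5, 2.83 and 8.35 at P56. The P1 libraries spread over more than the gap between the stages (log2 -1.91 ± 0.45, edgeR adjusted p = 0.0272). PK61139 (chr9:5256395-5257345), 41172 bp from Casp1, the protease that matures interleukin-1, was the most even of the calls. Its levels were 27.1, 26.6 and 22.9 CPM at P1, 15.8, 15.6 and 15.8 at P14 and 7.88, 7.54 and 8.35 at P56, so each stage lay below the one before it (P56 against P1, log2 -1.68 ± 0.41, adjusted p = 0.0351). Its call was kept in 4 of the 9 fits with 1 library left out. The other 7 (PK41923, PK46872, PK2554, PK702, PK13112, PK38192 and PK19885) were intergenic, with adjusted p of 0.0206 to 0.0465. Of these, PK702 (chr1:28036368-28037626) had a gap of 774780 bp to the nearest peak.

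Of the 3 that rose, only PK63677 (chr9:105027662-105029026) had a mean count of at least 20. It lies inside Cpne4, which encodes a copine, a calcium-dependent phospholipid-binding protein. Its level was 27.1, 23.3 and 31.1 CPM at P1, 45.6, 21.8 and 25.3 at P14 and 49.9, 84.8 and 55.1 at P56. All P56 libraries lay above the others, and P56 replicate 2 was the highest. The rise was 2.34-fold (log2 1.23 ± 0.30 SE, edgeR adjusted p = 0.0374) and was called in 3 of 9 fits that left out 1 library, while the promoter region of Cpne4 itself gave log2 -0.12 ± 0.21 (adjusted p = 0.771). PK3697 (chr1:141103809-141104634), 489764 bp from the potassium channel gene Kcnt2, had 8.23, 5.55 and 10.6 CPM at P1 and 17.1, 37.7 and 26.7 at P56 (log2 1.72 ± 0.40, adjusted p = 0.0272). PK16773 (chr13:82424455-82425427), 627300 bp from the centrin gene Cetn3, had 14.0, 6.66 and 12.3 CPM at P1 and 11.8, 52.8 and 38.4 at P56. Its stages overlapped, and P56 replicate 1 lay within the P1 range (log2 1.63 ± 0.40, adjusted p = 0.0348).

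**Figure D4:**
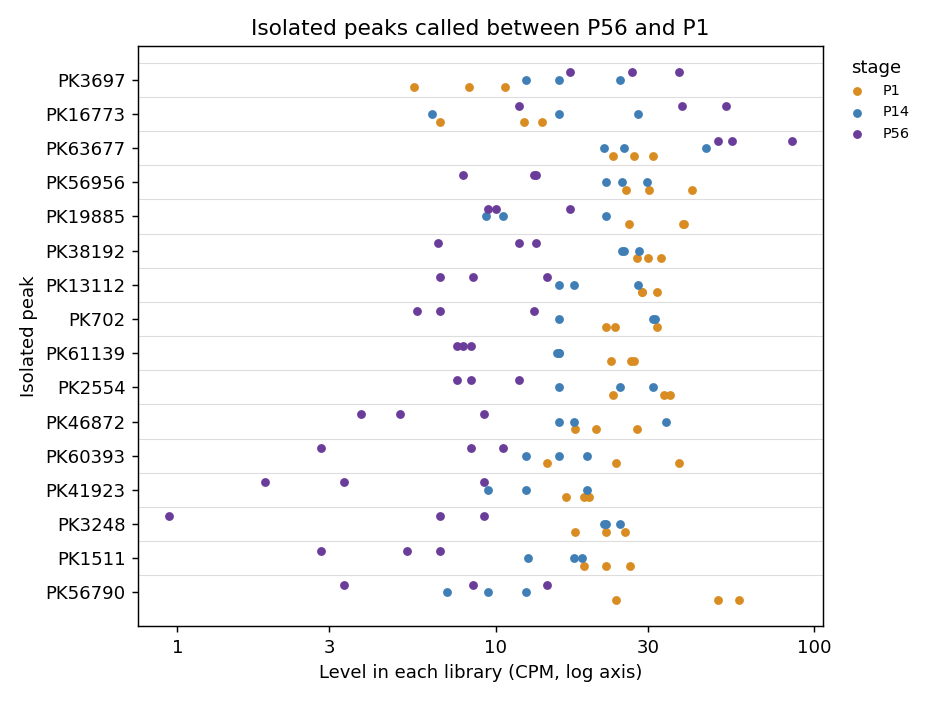
Level in each of the 9 libraries (CPM, log axis) of the 16 isolated peaks that passed the test between P56 and P1, ordered by log2 change, with 1 point per library coloured by stage. At the 13 lower peaks every P56 point lies left of every P1 point, and at PK16773 the stages overlap.

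A pair of further members had the smallest p among those with higher adult levels and did not pass. PK63853 (chr9:110963418-110964635) lies inside Lrrc2, a leucine-rich repeat gene expressed in striated muscle. It had 21.4, 9.99 and 13.1 CPM at P1, 26.3, 31.1 and 31.6 at P14 and 23.6, 44.3 and 33.4 at P56 (log2 1.18 ± 0.35 for P56 against P1, adjusted p = 0.0898). Every later library was above every P1 library. The promoter region of Lrrc2, counted in the other deposited table, rose from 65.3 ± 10.2 CPM (SD, n = 3) at P1 to 120.3 ± 59.7 at P56 (log2 0.89 ± 0.23 SE, edgeR adjusted p = 0.0368), with 59.0, 178 and 123 CPM in the P56 libraries, the first of them within the P1 range. PK62368 (chr9:52965264-52966666), 131788 bp from Ddx10, had 29.6, 21.1 and 25.4 CPM at P1 and 36.8, 68.8 and 43.4 at P56 (log2 0.98 ± 0.31, adjusted p = 0.109).

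At P14 against P1 no isolated peak passed the test (edgeR), against 0.00773% of all peaks, and 130 (5.03%) had an unadjusted p below 0.05, against 6.04%. The median log2 change was -0.03, against -0.0021 for all peaks. At P56 against P14 none passed either (0.00773% of all peaks). An unadjusted p below 0.05 was reached by 467 (18.1%, against 14.7%), and by 181 without P56 replicate 2. The median log2 change was -0.34, against 0.02 for all peaks. These comparisons share libraries with each other and with P56 against P1. Without P1 replicate 1 and P56 replicate 2 together, P14 against P1 gave 70 calls, 33 higher and 37 lower, among 1039 over all peaks, and leaving out P56 replicate 1 gave 44 calls for P56 against P14, among 292 over all peaks.

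The 5 members with the smallest p in each direction of these 2 comparisons included 1 near Tbx5 and 1 at the promoter of Sema3c, both genes of heart development. These 2 members and PK6534, which was lower at P14 than at P1, were singled out here after their values were seen. PK48974 (chr5:119894287-119895599) lies 9067 bp from Tbx5, a T-box factor needed to form the atria and the conduction system. It had 28.8, 26.6 and 18 CPM at P1, 68.4, 46.7 and 50.5 at P14 and 39.4, 23.6 and 40.1 at P56. All P14 libraries lay above all others, without passing the test (P14 against P1, log2 1.21 ± 0.33 SE, edgeR adjusted p = 0.441). PK6534 (chr10:57112970-57114094), 369672 bp from the heat shock factor gene Hsf2, had lower P14 levels, with 28.8, 41.1 and 52.4 CPM at P1, 8.77, 12.5 and 18.9 at P14 and 18.4, 46.2 and 25.0 at P56 (log2 -1.68 ± 0.44, adjusted p = 0.289). The promoter of Sema3c, a secreted guidance factor of the cardiac outflow tract, lay under PK46277 (chr5:17574162-17575204). It had 18.9, 24.4 and 24.6 CPM at P1, 14.0, 3.11 and 15.8 at P14 and 30.2, 40.5 and 31.7 at P56 (P56 against P14, log2 1.58, adjusted p = 0.194). Its P14 counts were 8, 1 and 5 reads, so the depth at P14 limits what can be read from them. The other members named by this rule had adjusted p of 0.0795 to 0.558 at P14 against P1 and 0.121 to 0.213 at P56 against P14, and lay among others in Chl1, Csmd1, Zfp423, Gpc5 and Plxdc2. Some were intergenic, with Nrp1, Nrp2 or Bmper as the nearest protein-coding gene.

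The strongest isolated peak was far from any protein-coding gene. PK37093 (chr3:5859877-5861333), 281281 bp from Pex2, had 154, 185 and 168 CPM at P1, 212, 283 and 249 at P14 and 192, 116 and 190 at P56. All P14 libraries lay above all P1 and P56 libraries, while P1 and P56 overlapped (P14 against P1, log2 0.55 ± 0.24 SE, edgeR adjusted p = 0.77). PK48627 (chr5:104330284-104332720), inside the bone matrix gene Mepe, had 155, 104 and 70.4 CPM at P1 and 189, 66.0 and 150.3 at P56, and the promoter region of Mepe was low, with 11.8 ± 0.712 CPM (SD, n = 3) at P1 and 7.09 ± 1.12 at P56. The next were at gene ends or promoters: PK41838 at Ripk2, a kinase of innate immune signalling (mean of 100.6 CPM), PK4054 at Lamc1, a basement membrane laminin (97.2), PK23142 in Shisal1 (97.1) and PK23426 at Scaf11 (95.2). At PK41838, PK4054 and PK23426 the highest of the 9 libraries was P56 replicate 2, with 151, 148 and 169.6 CPM, and the changes between P56 and P1 were 0.24, 0.29 and 0.31 without passing the test.

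The promoters shown above had these levels. PK50096 (chr6:14754717-14755566) at Ppp1r3a, whose nearest peak is 850824 bp away, had 14.0, 20.0 and 17.2 CPM at P1, 5.26, 9.34 and 3.16 at P14 and 9.19, 30.2 and 5.01 at P56. The P14 libraries lay below the P1 libraries and P56 replicate 2 stood above all (P14 against P1, log2 -1.51 ± 0.60 SE, edgeR adjusted p = 0.742). The Ppp1r3a promoter region in the other table had stage means of 13.7 ± 2.48, 6.36 ± 3.63 and 17.4 ± 15.0 CPM (SD, n = 3 each). PK40259 (chr3:113629431-113630576) at Rnpc3 had the largest gap of any promoter member, 1191757 bp, and levels of 30.5 ± 10.0, 29.2 ± 5.01 and 23.7 ± 9.0 CPM at the 3 stages. Among the strongest promoter members were PK34216 at Gpr155, PK31523 at LOC115489044 (it also overlaps the gene Zfand5), PK7590 at Atp2b1 and PK2283 at Sh3bp4. In that order they had mean levels of 90.7, 88.9, 85.9 and 84.0 CPM and changes from P1 to P56 of 0.47, 0.28, 0.34 and -0.10. None of these passed the test, and P1 and P56 overlapped at each.

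PK10972 (chr11:111065337-111066890) at Kcnj2 had 30.4, 45.5 and 75.3 CPM at P1, 47.3, 40.5 and 37.9 at P14 and 57.8, 94.2 and 61.8 at P56. P1 and P56 overlapped (log2 0.51 ± 0.29, edgeR adjusted p = 0.367). The Kcnj2 promoter region gave log2 0.70 ± 0.29 (adjusted p = 0.152). PK25408 (chr16:67619728-67621668) at Cadm2, 829671 bp from its neighbour, was level at 53.0 ± 11.3, 49.0 ± 7.57 and 47.9 ± 8.42 CPM (SD, n = 3 per stage). Over the 345 pairs of a promoter member and the same gene's promoter-region count, 262 had the same sign of change from P1 to P56. The Pearson correlation was 0.70 across pairs, which are not independent replicates and can count the same reads, and no promoter region of the pairs passed the test.

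The largest gaps were not at the strongest peaks. PK17731 (chr14:3544686-3546804) inside Gm2977 was 1421601 bp from its neighbour, which was PK17800 (chr14:4968405-4969987) inside Gm10410, with a gap on its own nearer side of 1137403 bp. Both lie among predicted genes with similar copies, so their counts are uncertain, and their mean levels were 15.4 and 15.0 CPM. PK12512 (chr12:47915826-47916853), 1096260 bp from the next peak and 1096346 bp from Nova1, a neuronal splicing factor, had 25.5, 18.9 and 29.5 CPM at P1, 17.5, 12.5 and 22.1 at P14 and 11.8, 7.54 and 11.7 at P56. Its P1 and P56 libraries did not overlap (log2 -1.29 ± 0.40 SE, edgeR adjusted p = 0.103). PK21371 (chr15:16531958-16532791), 195759 bp from the cadherin gene Cdh9, overlapped in all stages, with means of 19.2 ± 4.57, 21.3 ± 5.41 and 15.8 ± 5.59 CPM.

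At the limit of the rule the members just inside were PK8609 and PK8611, neighbours of each other at a gap of 100003 bp near Vwc2, and PK4901 in Kcnk2 at 100038 bp, with changes from P1 to P56 of -0.44, -1.53 and 0.10. Those just outside were PK12002, PK60808 and PK51661 at 99988, 99950 and 99917 bp, with -0.29, 0.46 and -0.60.

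Isolated peaks were frequent at a list of 35 synaptic adhesion and long neuronal genes. These genes were listed as low in heart muscle and as sitting in gene-poor DNA. A high share of isolated peaks was therefore largely set by the choice of the list. Of the 2594, 122 (4.70%) lay in or nearest to a gene of this list, against 232 (0.905%) of all autosomal peaks. Of the 232 peaks at these genes, 122 were isolated. They covered 33 of the 35 genes, with 47 inside the gene body. Pcdh7 had 11 of them, Csmd3 8, Cdh18 7 and Cdh8 6. Their median change from P1 to P56 was -0.57, against -0.35 for all isolated peaks, and 1 passed the test (PK60393 at Cdh8, lower). At 31 of them (25.4%) all P56 libraries lay below all P1 libraries, a share between those of all isolated peaks (20.6%) and of intergenic isolated peaks (27.4%). By gene the medians were -1.25 at Cdh8, -1.05 at Csmd1, -0.65 at Csmd3 and -0.21 at Pcdh7. At the promoter regions of these genes in the other table, 3 of 33 passed the test as lower, Csmd3 and Cntn4 among them, and 0 as higher, against 0.806% and 1.72% of all regions, with a median of -0.46.

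The strongest members of this list had log2 differences closer to 0 than its median. PK1811 (chr1:69105506-69107774) at an end of Erbb4, the neuregulin receptor, had 67.0 ± 13.5, 54.2 ± 3.86 and 65.0 ± 19.3 CPM (SD, n = 3 per stage). PK56482 inside Dlg2, PK41335 inside Negr1, PK21528 inside Cdh18, PK42241 nearest to Epha7 and PK47310 at Pcdh7 had changes of -0.27, -0.24, -0.32, 0.17 and 0.19, none of which passed the test.

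The heart gene lists had few isolated peaks, with shares near or below those over all peaks. The list of 26 cardiac transcription factors had 13 (0.501%, against 0.461% of all autosomal peaks), with a median of -0.31 and none that passed the test. Of these, 3 were nearest to Mef2c, the myogenic factor of the early heart. The strongest, PK16803 (chr13:83846298-83848221), lay 179219 bp from Mef2c and had 47.6 ± 8.57, 52.7 ± 16.5 and 38.5 ± 15.4 CPM (SD, n = 3 per stage). PK21993 (chr15:40654146-40656564), at an end of Zfpm2, the partner of GATA factors, had 55.5 ± 13.8, 46.2 ± 10.9 and 56.9 ± 20.9 CPM. The list of 20 sarcomere genes had 1, at Myom2 (0.0386%, against 0.176%), although 11 of the 20 sarcomere promoter regions rose from P1 to P56. The list of 16 ion channel and calcium genes had 6 isolated peaks (0.231%, against 0.347%), 3 of them at the sodium-calcium exchanger gene Slc8a1, and 3 of 16 promoter regions rose (Kcnip2 and Cacna1c among them). In the list of 11 insulator and cohesin genes the only one was PK18565 (chr14:34673087-34674645) at the promoter of Wapl, which releases cohesin from DNA, with 48.7 ± 13.5, 40.4 ± 7.01 and 51.6 ± 10.7 CPM, and no promoter region of that list passed the test. Of 24 cardiac factor promoter regions 1 rose (Mef2d). Over all promoter regions, 1.72% passed the test as higher. Promoter regions were not fitted without P56 replicate 2, so how far these rises depend on that library was not tested.

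The genes that held isolated peaks were long. With promoter and gene-end members included, 720 isolated peaks lay within 587 protein-coding genes. The median host gene was 329685 bp long per peak, against 70388.5 bp for clustered peaks and 17146 bp for all 21900 protein-coding genes of the annotation; a long gene has more room for a peak with no neighbour. Cntnap2, Dpp10, Rbms3 and Rora held 4 each. Their medians differed in sign: -0.63 in the cell adhesion gene Cntnap2 and -0.31 in Dpp10, but -0.03 in Rbms3 and 0.34 in the nuclear receptor gene Rora. None of these peaks passed the test.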

How the data were processed

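The authors deposited raw read counts per peak and per gene start region for 9 ATAC-seq libraries, 3 per stage. Alignment, peak calling and counting tools listed per the submitters' processing notes include BWA 0.7.10, MACS 1.4.0 and featureCounts 1.4.2, with the build GRCm38. Their settings, the read filters, how libraries were pooled for peak calling and the width of a start region are not given in the sources used here.

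Each table was fitted whole with edgeR 4.0.16 (R 4.3.3): TMM scaling, the default expression filter (25885 peaks and 33747 start regions remained), 1 coefficient per stage, the two-sided quasi-likelihood F test and Benjamini-Hochberg adjustment over all rows fitted, at 0.05. CPM are counts over the TMM-scaled library total. Positions came from RefSeq (GRCm38.p6). The gene positions used here carried no strand, while the promoter windows did. Peaks were named by rule: up to 10 per direction for P56 against P1 and up to 5 for each other comparison, by change, among calls whose stages did not overlap and whose mean count reached 20, otherwise the 5 smallest p. Also named were the 6 strongest, the 5 most isolated, those at the 100000 bp limit, 12 at listed genes and 6 at promoters. Of the 12, 1 is not reported here. The other calls, and the Ppp1r3a promoter, were added after their values were seen. The members and lists were chosen with earlier results of these data known. The fit was also run on simulated counts, with the same setting for spread at every peak and no library that stood apart. That run cannot show how the calls depend on single libraries. Libraries are pools of hearts, and PCR reads carry no molecular identifiers.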

Additional observations from a re-analysis of the deposited data

How the results depend on the processing

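The number of isolated peaks called between P56 and P1 (16, among 115 over all peaks) was the least stable value. With the count over all peaks after each, it was 5 among 47 with the factors of the start-region table, 3 among 44 with loess offsets, 0 among 44 with a mean count of at least 20 (178 isolated peaks at an unadjusted p below 0.05), 8 among 49 with the 2 stages fitted alone, 3 among 49 with limma-voom 3.58.1, 0 among 77 with the DESeq2 1.42.0 Wald test (341 unadjusted), 1 among 13 at an adjusted p below 0.01, 7 among 115 with isolation of 200000 bp, 0 to 111 among 0 to 649 with 1 library left out, and 42 among 691 (10 higher, 32 lower, 8 of the 16 kept) without P1 replicate 1 and P56 replicate 2 together, a setting chosen after seeing the data. At P14 against P1 the count of 0 became 1 among 7 with the 2 stages alone, 0 to 3 among 0 to 41 with 1 library left out and 70 among 1039 without both libraries. At P56 against P14 it was 0 to 44 among 0 to 292 with 1 library left out. With the replicate number as a block there were 96, 1 and 4 calls in the 3 comparisons, among 684, 18 and 41 over all peaks. Same-numbered libraries correlated from -0.18 to 0.44 in their deviations from the stage means, and differently numbered ones from -0.50 to 0.49. The sample titles state no pairing and these values cannot settle it, so the block is given only here. The median change of isolated peaks (-0.35) was -0.070 with the start-region factors. In the other settings it ran from -0.51 without P56 replicate 1 to -0.15 without both libraries. The share of peak counts in isolated peaks (7.44%, 7.26% and 6.03% at P1, P14 and P56) was 19.9%, 19.6% and 17.6% with isolation of 50000 bp, 2.19%, 2.15% and 1.61% with 200000 bp, and 8.03% and 7.82% at P1 and P14 with no limit on width. The median of promoter members (-0.04) was 0.23 with the start-region factors, 0.09 without P1 replicate 3 and -0.21 without both libraries, and that of clustered peaks (0.12) was -0.0066 without both. None of the 16 called peaks changed sign in any setting; of the 51 other named peaks fitted, 31 changed sign in at least 1, none past the threshold there (PK4054 at Lamc1 went from 0.29 to -0.18 without both libraries, PK1811 at Erbb4 from -0.02 to 0.26 with the start-region factors). Depth limits P14 most: its libraries had median counts of 8 to 15 per isolated peak, against 22 to 32 at P1 and 13 to 17 at P56.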

Other observations

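The change from P1 to P56 also varied with the peak numbers missing around an isolated peak. The median log2 change was 0.03 for the 87 isolated peaks with no number missing before either neighbour, -0.06 for the 567 with 1 to 4 missing, -0.32 for the 648 with 5 to 9, -0.50 for the 778 with 10 to 19 and -0.58 for the 509 with 20 or more. The same classes were 34.5%, 34.7%, 48.5%, 65.3% and 71.9% intergenic, and their median flanks, summed over both sides, grew from 270447 to 1049620 bp. The missing numbers per 100 kb of flank were 0, 0.768, 1.70, 2.38 and 2.76. What the missing peaks held was not analysed here, and their part in the change was not tested.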
